A study of Homo sapiens with 24 samples.

Results

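Regions of poly(A)-selected transcripts that carried an m6A peak without UV in both genotypes, and none after UV in either, were chosen from the peak lists of U2OS cells. The peaks of the 4 deposited lists, 1 list per condition, were pooled, and peaks that shared at least 1 base on the same transcript were merged. This gave 20811 regions, of which 769, or 3.7%, had none in KO plus UV or WT plus UV but had one in both KO minus UV and WT minus UV. The 769 regions lay on 626 transcripts, and 763 of them could be given a gene symbol, for 621 genes. Presence or absence of a peak chose the regions, so their number and their pattern over the lists are a description and not a test.

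U2OS is a line grown from a human osteosarcoma, and was used here with METTL3 knocked out (KO) or as wild type (WT). All groups had been grown with 10 µM BrdU. The 4 conditions were METTL3 KO cells given UVC at a labelled dose of 50 J and lysed after 2 min (KO plus UV), WT cells treated alike (WT plus UV), METTL3 KO cells without UVC (KO minus UV) and WT cells without UVC (WT minus UV). RNA bound by an m6A antibody (IP) was sequenced in 2, 4, 3 and 3 libraries of these conditions, with an input for each, 24 libraries in all. The sources used here do not give how the knockout was made or whether it is a single clone. The labels name 1 list for all libraries of a condition, and how the replicates were combined is not stated, so no value has a replicate, and the spread of replicates could not be used to judge any difference below. The intervals are 95% Wilson intervals (Newcombe for differences), and they cover counting error alone: regions that share a transcript depend on each other, and sequenced reads that carry no molecular identifier can repeat 1 molecule. The lists carry no read counts, so the depth at each peak is unknown.

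N6-methyladenosine is placed on nascent messenger RNA by a complex of METTL3, the catalytic subunit, with METTL14 and several adaptors. It is read by proteins of the YTH family, which steer the splicing, export, translation and decay of the marked RNA. The commonest sites lie in long exons, near stop codons and in the 3′ untranslated region. An antibody peak marks a stretch of RNA that the antibody enriched, and it can hold such a site. By the rule, every region chosen here has a peak in METTL3 KO cells. What the antibody bound there was not tested. The antibody also binds the related N6,2′-O-dimethyladenosine that can follow the cap when a transcript starts with adenosine. A missing peak can come with less of the mark or with less of the RNA, which a peak list cannot tell apart.

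Sequence was at hand only for the first bases of genes, so it is shown for regions at the very start of a transcript. Of the 769 regions, 49 began within the first 50 bases of the transcript. The 6 below belong to genes with a single RefSeq transcript, for which the start of the gene is the start of the listed transcript. Windows of CHKB-CPT1B, which opens with A, and SENP3-EIF4A1, which opens with G, were also read. They held no GGAC and are not shown. Each line gives the first 50 bases of the gene, 5′ to 3′, from RefSeq (GRCh38.p14), and capitals mark GGAC, the core of the commonest m6A motif.
RNF114: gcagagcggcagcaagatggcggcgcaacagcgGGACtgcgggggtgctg
CHMP1B: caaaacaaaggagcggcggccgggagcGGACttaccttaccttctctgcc
THAP10: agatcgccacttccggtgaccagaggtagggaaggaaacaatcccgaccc
PURB: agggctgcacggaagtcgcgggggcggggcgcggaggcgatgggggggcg
CELSR3: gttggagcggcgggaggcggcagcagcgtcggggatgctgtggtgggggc
SLC25A25-AS1: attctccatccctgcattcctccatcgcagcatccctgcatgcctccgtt

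RNF114, a ubiquitin ligase (window chr20:49936397-49936446, plus strand), had its region at bases 1 to 130 of the transcript, and GGAC began at base 34 of the window. CHMP1B, a subunit of the ESCRT-III membrane-remodelling complex (chr18:11851413-11851462, plus strand), had its region at bases 34 to 270, and GGAC began at base 28, just before the region. THAP10 (chr15:70892384-70892433, minus strand), PURB, which binds purine-rich single-stranded nucleic acid (chr7:44885481-44885530, minus strand), CELSR3, an atypical cadherin (chr3:48662837-48662886, minus strand), and the antisense transcript SLC25A25-AS1 (chr9:128118685-128118734, minus strand) held no GGAC in the window. The windows of THAP10, PURB and SLC25A25-AS1 open with A, those of RNF114 and CELSR3 with G and that of CHMP1B with C. Over all regions that began in the first 50 bases and had a window, whatever the number of transcripts of the gene, GGAC on the sense strand was found in 10 of 44 windows (22.7%, 12.8 to 37.0). The share was 22.6% for regions in every list and 18.8% over all 27305 windows of the table. Windows that open with A numbered 23 of 44 (52.3%, 37.9 to 66.2), against 55.1% for regions in every list and 44.3% over all windows. The intervals of these shares are wide enough to hold the values of the regions in every list.

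The regions made up a small part of the sites found without UV. Of 8970 regions with a peak in both KO minus UV and WT minus UV, 8.57% (8.01 to 9.17) had no peak in either UV list, and 5340 had a peak in both UV lists. The opposite pattern, a peak in both UV lists and none without UV, was found at 413 of 7233 regions, or 5.71% (5.2 to 6.3). The 2 UV lists differed in how many sites they lacked. KO plus UV had no peak at 37.2% of the 8970 regions and WT plus UV had none at 11.8%. Where KO plus UV lacked a peak, WT plus UV lacked it as well at 23% of regions, and where KO plus UV held a peak, WT plus UV lacked it at 5.13%. The labels tie 2 IP libraries to the KO plus UV list, with 9471 peaks, and 4 to the WT plus UV list, with 15465, against 3 and 13852 for KO minus UV and 3 and 13989 for WT minus UV, and the part of library number in these counts was not tested. Leaving out the KO plus UV list, 1058 regions had a peak in both lists without UV and none in WT plus UV.

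**Figure D1:**
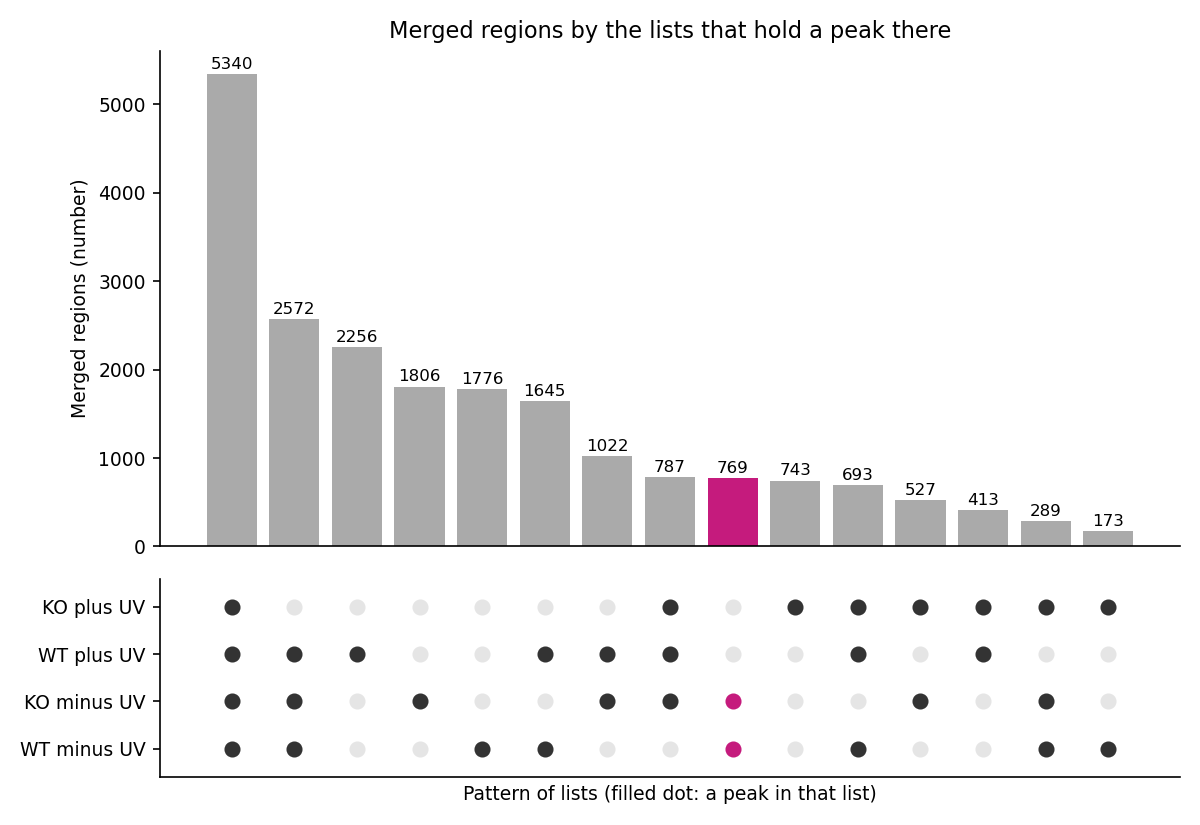
Number of merged regions (vertical axis) for each combination of lists that hold a peak there (dots below, filled where the list holds a peak). The 769 regions with a peak in both lists without UV alone are in magenta, and the 413 with a peak in both UV lists alone are among the least frequent patterns.

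On 33 genes, 3 or more separate regions showed this pattern, and on 18 of these genes the transcript had no UV peak anywhere. Of all 626 transcripts with such a region, 202 (32.3%) had no UV peak. The gene with the greatest summed length was USF3, a basic helix-loop-helix transcription factor related to the upstream stimulatory factors (chromosome 3, 113648385 to 113696642, GRCh38). KO plus UV had 0 peaks on it, WT plus UV 0, KO minus UV 8 and WT minus UV 5. Its 5 regions, at bases 1412 to 1780, 2211 to 2527, 5478 to 5900, 6085 to 6547 and 6603 to 6779 of the transcript, covered 1749 bases. SLC5A3, the sodium-coupled myo-inositol transporter used in osmotic adaptation (chromosome 21, 34073578 to 34106260), had the most regions. It carried 0, 0, 8 and 8 peaks in the same order of lists, and 6 regions lay between bases 364 and 2631. At bases 1660 to 1869 the KO minus UV and WT minus UV peaks of SLC5A3 had centres 1 base apart. Both transcripts held many peaks in each genotype without UV and none in either genotype after it.

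Other transcripts with several such regions and no UV peak encode proteins of varied roles. MTR, methionine synthase, which regenerates the methionine from which the methyl donor of m6A is made, carried 0, 0, 4 and 7 peaks, and its 4 regions lay between bases 4051 and 7920. PPARA, a nuclear receptor that drives fatty acid oxidation, carried 0, 0, 5 and 7 peaks. KIF14, a mitotic kinesin needed for cytokinesis (chromosome 1, 200551497 to 200620751), carried 0, 0, 5 and 6. Its first region, at bases 1027 to 1356, was covered almost whole by 1 peak of each genotype, of 315 bases in KO minus UV and 330 in WT minus UV, with centres 1.5 bases apart. CEP350, a centrosome protein, carried 0, 0, 8 and 4 peaks, and AKAP9, a scaffold that anchors kinases at the centrosome and Golgi, 0, 0, 5 and 5. INO80D, a subunit of the INO80 chromatin remodeller (chromosome 2, 205993721 to 206086174), carried 0, 0, 5 and 5 peaks and held the longest region of all 769, 1022 bases at positions 2392 to 3413, made of 3 peaks in KO minus UV and 3 in WT minus UV. SLC2A12, a glucose transporter, CD59, an inhibitor of complement, PLPP3, a lipid phosphatase, UTRN, the dystrophin relative utrophin, JMJD1C, of the histone demethylase family, and PHTF2, PREPL, IGSF9B, ZBTB20 and ZZEF1 each had 3 regions and likewise no UV peak.

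RUNX2, the master transcription factor of osteoblasts (chromosome 6, 45328330 to 45551082), was on a list of 12 osteoblast lineage markers. KO plus UV had 0 peaks on it, WT plus UV 0, KO minus UV 3 and WT minus UV 3, at bases 1315 to 1530, 1844 to 2054 and 2102 to 2287. Of the 12 markers, 4 had a region in any list and 3 had one in both lists without UV. RUNX2 was the 1 of these 3 with a region that lacked UV peaks, and over all genes the share was 11.5%. Blood, epithelial and neuronal markers, 12 each, gave 0, 1 and 1 genes with a region in both lists without UV, and 0 with a region of the pattern. With so few genes the marker lists cannot be compared.

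**Figure D2:**
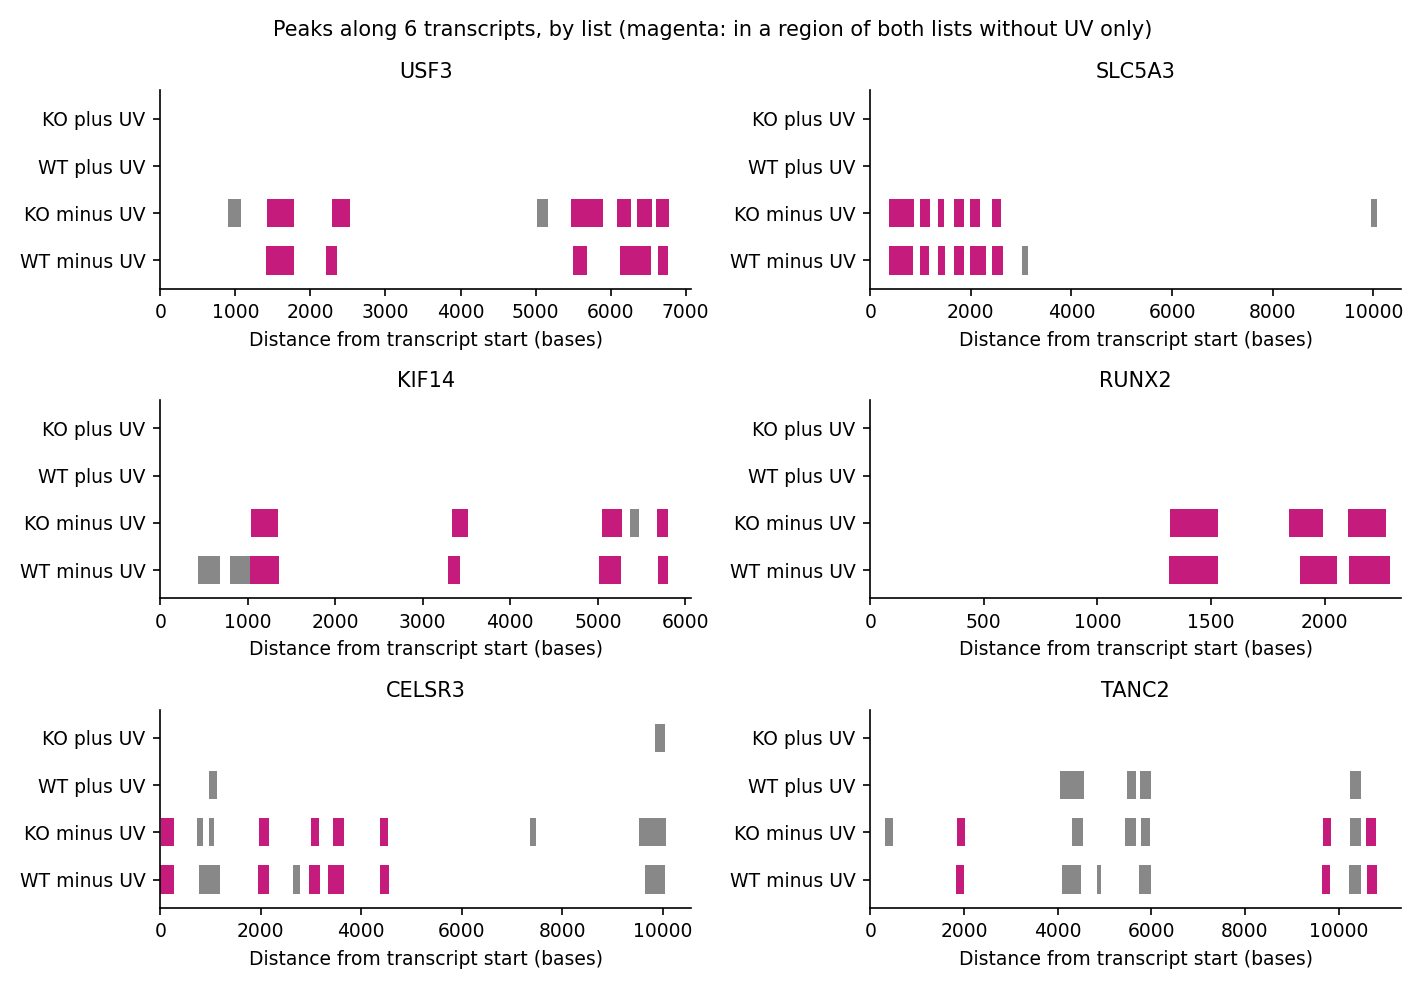
Peaks along 6 transcripts, chosen after their values were seen, with distance from the transcript start in bases on the horizontal axis and the lists as rows. Magenta peaks lie in regions of both lists without UV only and grey peaks elsewhere: USF3, SLC5A3, KIF14 and RUNX2 have no UV peak, whereas CELSR3 and TANC2 have UV peaks at other sites.

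Whole transcripts without a UV peak accounted for 276 of the 769 regions (35.9%, 32.6 to 39.3), on 202 transcripts. These were 3.71% of the 5446 transcripts with a region in both lists without UV. The matching share was higher in the opposite set. Of regions in both UV lists only, 190 of 413 (46%, 41.3 to 50.8) lay on transcripts with no peak without UV. The remaining 493 of the 769 regions lay on transcripts with a UV peak at another site: for 257 both UV lists had one there, for 30 the KO plus UV list alone and for 206 the WT plus UV list alone. On these the nearest UV peak was a median of 577 bases away, with a middle range from 169 to 1435 bases, and 74 of 493 regions (15%, 12.1 to 18.4) had one within 100 bases. It lay in WT plus UV alone for 373 regions, in KO plus UV alone for 105 and at the same distance in both for 15.

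Some transcripts with many peaks lacked UV peaks at some of their sites and held them at others. On transcripts with 6 or more regions in both lists without UV, 13.4% of regions had no UV peak. KMT2D, a histone H3 lysine 4 methyltransferase, had 10 KO plus UV peaks, 12 WT plus UV peaks, 14 KO minus UV peaks and 18 WT minus UV peaks, and 2 of its 13 regions found in both lists without UV had no UV peak. FAT1, an atypical cadherin, carried 7, 11, 13 and 12 peaks, and 1 of 7 such regions had none. CELSR3, which acts in planar cell polarity, carried 1, 1, 9 and 8 peaks, and 5 of 7 regions had none. TANC2, a scaffold protein of synapses, carried 0, 5, 8 and 7 peaks, and 3 of 6 regions had none. The last WT plus UV peak of TANC2, at bases 10248 to 10475, lay between regions of the pattern at 9650 to 9829 and 10589 to 10809. HIPK2, a kinase that phosphorylates p53 in the damage response, carried 1, 3, 8 and 5 peaks, and 3 of 5 regions had none. KMT2A, of the same methyltransferase family as KMT2D, carried 0, 1, 8 and 8 peaks, and 3 of 4 regions had none. The ubiquitin ligase MYCBP2 carried 0, 3, 5 and 9, with 3 of 5 regions of the pattern, and VPS13D, a lipid transfer protein, 0, 2, 7 and 6, with 4 of 6. Among the other genes with 3 or more such regions were the kinase MAST4, PURB, NKTR, the RNA-binding protein NUFIP2, the cohesin subunit STAG2, the spindle pole protein ASPM, GPATCH2L and ZNF621, each with at least 1 UV peak elsewhere.

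The share of regions with the pattern was higher on transcripts with 3, 4 or 5 sites than on those with 1. On those with 6 or more it was also higher than on those with 1. It was no higher there than on those with 4 or 5, and the interval is wide. Of transcripts with 1 region in both lists without UV, 195 of 3162 (6.17%, 5.38 to 7.06) had that region without a UV peak. On transcripts with 2 such regions the share of regions was 7.90% (6.98 to 8.93), with 3 it was 9.60% (8.26 to 11.1), with 4 it was 14.7% (12.2 to 17.5) and with 5 it was 16.6% (12.9 to 21.0). On the 36 transcripts with 6 or more it was 13.4% (9.69 to 18.4), from 238 regions. All regions shared the pattern on 50 of the 2284 transcripts with at least 2, and 46 of these 50 had no UV peak at all.

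The regions lay on long genes. The median genomic length of their genes was 70.6 kb, against 61.6 kb for the 2572 regions that lacked a peak in KO plus UV alone, 37.9 kb for the 5340 in every list and 31.3 kb for the 413 in both UV lists only. Genes over 100 kb held 292 of 763 regions (38.3%, 34.9 to 41.8). This was 18.3 percentage points (14.8 to 22.0) above the share for regions in every list, 5.05 points (1.2 to 9.0) above that for regions missing from KO plus UV alone and 23.1 points (18.0 to 27.8) above that for regions in both UV lists only. When transcripts were split into 5 classes of equal size by the length of their gene, the share of regions of both lists without UV that had no UV peak was 12.7% (11.4 to 14.1) in the longest class, over 97.9 kb, and 5.98% (4.76 to 7.49) in the shortest, up to 11.2 kb. The opposite pattern was found at 4.48% (3.52 to 5.68) of regions in both UV lists in the longest class and 7.03% (5.70 to 8.65) in the shortest. Among transcripts with a single region in both lists without UV, where each transcript counts 1 time, the share with no UV peak was 10.9% (8.45 to 13.8) in the longest class and 4.84% (3.48 to 6.68) in the shortest.

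Both UV lists showed this relation to gene length. In the longest class 50.1% of the regions of both lists without UV had no KO plus UV peak and 15.8% had no WT plus UV peak, and in the shortest class the values were 27.1% and 8.97%. With the KO plus UV list left out, regions without a WT plus UV peak had a median gene length of 61.0 kb and those with one 44.3 kb, and genes over 100 kb held 34.3% (31.5 to 37.2) and 24.3% (23.3 to 25.2) of them.

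**Figure D3:**
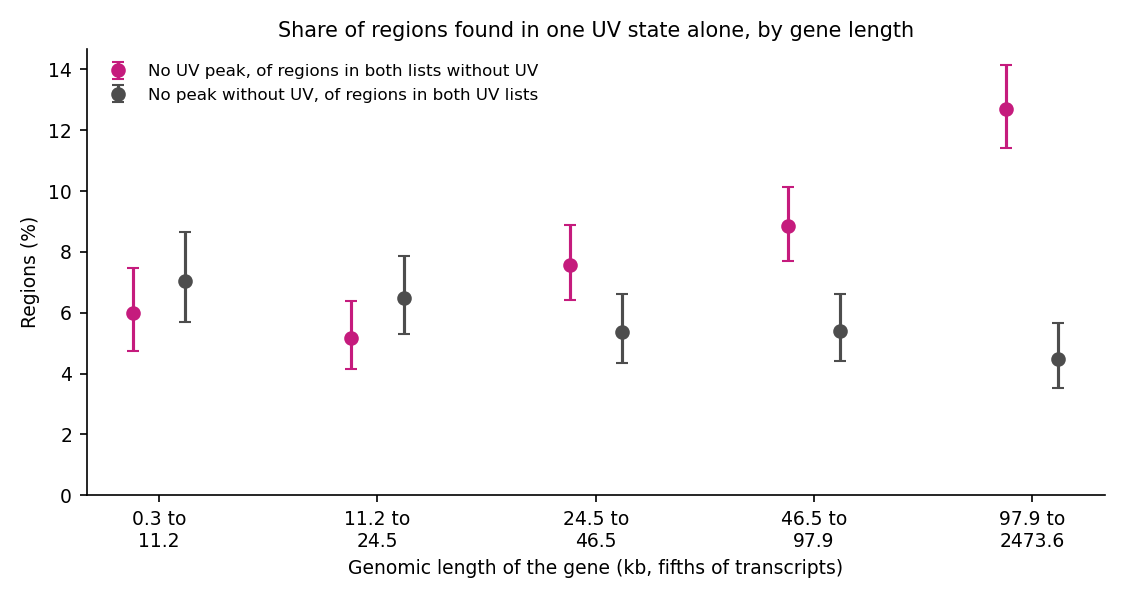
Share of regions in percent (vertical axis, from 0) by class of genomic gene length in kb. Magenta points give the share of regions in both lists without UV that have no UV peak, 12.7% in the longest class and 5.98% in the shortest, grey points the share of regions in both UV lists that have no peak without UV, and bars are 95% Wilson intervals.

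Counted in bases, the regions lay farther from the transcript start than the other sets. Their median first base was 1997, against 1517 for regions missing from KO plus UV alone, 1381 for regions in every list and 922 for regions in both UV lists only. Only 81 of 769 regions (10.5%, 8.56 to 12.9) began in the first 200 bases. The difference from regions in every list was -6.60 percentage points (-8.83 to -4.04), from regions missing from KO plus UV alone -5.84 points (-8.30 to -3.09) and from regions in both UV lists only -16.8 points (-21.7 to -12.1). The share of regions of both lists without UV that had no UV peak was 27.6% (21.8 to 34.3) for those that began beyond base 8000, 14% (11.9 to 16.5) beyond base 4000 and up to 8000 and 5.26% (4.0 to 6.9) in the first 50 bases. In the first 50 bases the opposite pattern was the more frequent, with 8.95% (7.3 to 11) of regions in both UV lists. Regions without a WT plus UV peak made up 32.3% of those beyond base 8000 and 9.98% of those in the first 50 bases, and regions without a KO plus UV peak 58.3% and 35.1%. Only long transcripts have sites so far from the start, and the transcripts of these regions were longer as far as peaks show it: the furthest peak of any list ended at a median of base 3670, against 2530.5 for regions in every list. Relative to that furthest peak end the position differed less. The first 10% of this span held the centres of 7.67% of the regions, against 9.38% in every list, and the last 10% held 36.2%, against 33.2% in every list and 34.9% over all regions. The length of the transcript and the distance from its start were not separated here. By genomic length, within genes over 50 kb the share with no UV peak was 17.0% beyond base 4000 and 7.85% in the first 1000 bases, and within genes of up to 50 kb it was 13.2% (9.07 to 18.7, from 190 regions) and 5.60%.

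**Figure D4:**
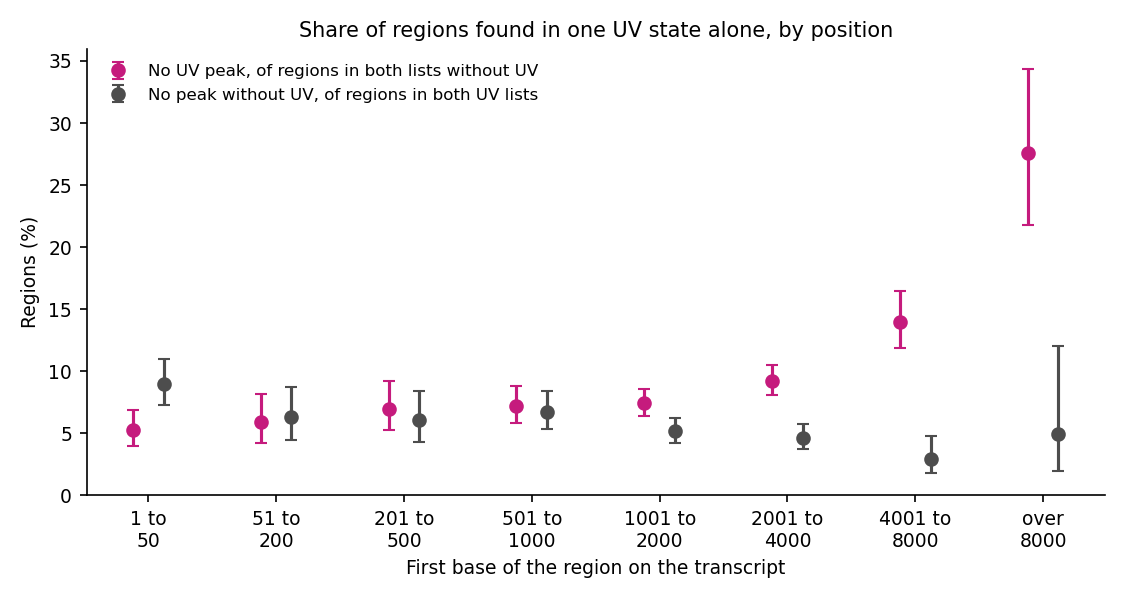
Share of regions in percent (vertical axis, from 0) by the first base of the region on the transcript. Magenta points, for regions in both lists without UV that have no UV peak, stand at 27.6% beyond base 8000 and 5.26% in the first 50 bases, grey points show regions in both UV lists that have no peak without UV, and bars are 95% Wilson intervals.

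The peaks of the 2 genotypes lay less closely together in these regions than in regions of every list. By the medians they also lay slightly less closely than in the other sets that lack peaks in some lists. In the 745 regions with 1 peak of each genotype, the centres of the KO minus UV and WT minus UV peaks lay a median of 18.5 bases apart, with a middle range from 7 to 36. The bases shared by the 2 peaks made up a median of 74.4% of the stretch that the 2 peaks cover together. In regions with a peak in every list the same pair of lists gave 10 bases and 87.7%, and in regions missing from KO plus UV alone 15 bases and 82.6%. In regions of both UV lists only, the KO plus UV and WT plus UV peaks gave 16 bases and 78.3%. The rule required 1 shared base, and 2 of the 769 regions met it with 10 or fewer. The KO minus UV peak was the wider in 348 regions, the WT minus UV peak in 369, and the widths were equal in 28. Median width was 172 bases for KO minus UV peaks and 170 for WT minus UV peaks in these regions, and 198 and 200 in regions of every list. Peaks of 350 bases or more made up 2.29% of the KO minus UV and 2.81% of the WT minus UV peaks here, and 6.71% and 7.01% in regions of every list. The narrowest width in the lists, 100 bases, was held by 7.64% and 7.29% of the peaks here and by 3.21% and 4.26% in regions of every list. Narrow peaks were not particular to these regions. In regions of both UV lists only, the median width was 160 bases in KO plus UV and 170 in WT plus UV, with 12.1% and 10.8% of peaks at 100 bases and 0.484% and 0.964% at 350 or more.

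At the edge of the rule, regions of ABL1 and SDHAF2 abutted a UV peak with 0 bases between, and S1PR5, ANKH and HERC1 had one 4, 5 and 7 bases away. Just outside it, single regions were left out because a UV peak shared a few bases with a peak without UV. A WT plus UV peak shared 9 bases in a region of BCAT1, and 24, 25 and 28 in regions of SMG1, KMT2B and NCAPG. A KO plus UV peak shared 9 in a region of EIF4E2. Other regions of EIF4E2 and SMG1 did have the pattern. The least overlap between KO minus UV and WT minus UV peaks was 4 bases in APC and 8 in LUC7L3, followed by 20 in SHROOM3, 28 in SARS2 and 30 in DIXDC1.

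Gene groups were counted as genes with at least 1 of the regions, out of genes with a region in both lists without UV. Over all genes this was 621 of 5401, or 11.5%. Among groups of 30 genes or more, the highest shares were those of transcription factors. Checkpoint and double-strand break repair, with 18 genes, stood close to them at 22.2%. Of forkhead, homeobox, SOX and RUNX factors, 7 of 30 had such a region (23.3%), including RUNX2, MEIS1 with 0, 0, 2 and 2 peaks in the order of lists used above, FOXA2, a pioneer factor of endoderm, with 0, 0, 1 and 1, and ZFHX4 with 0, 0, 2 and 4. The opposite pattern was found in 4 of 24 genes of this group with a region in both UV lists (FOXF2, HOXA11, HOXD8 and SOX18), against 389 of 4851 genes (8.02%) over all. Of ZNF genes, which encode mostly DNA-binding zinc finger repressors, 26 of 116 had one (22.4%). No UV peak was found on 11 of the 26 transcripts, against 202 of 626 (32.3%) for the transcripts of all the regions. ZNF786 carried 0, 0, 2 and 2 peaks, ZNF780B 0, 0, 3 and 2, ZNF621 0, 1, 5 and 4 and ZNF185, which despite its name encodes a LIM domain protein, 0, 2, 3 and 2. Among the 192 regions of ZNF genes in both lists without UV, 30 (15.6%) had no UV peak. By regions, kinesins and centrosome proteins stood at 12 of 80 (15%), forkhead, homeobox, SOX and RUNX factors at 10 of 54 (18.5%) and all genes at 8.58%. The ZNF genes were not long: their median length was 22.4 kb, against 36.9 kb over all genes. With the KO plus UV list left out, the shares were 27.6% (20.3 to 36.3) of ZNF genes and 15.8% of all genes. The opposite pattern was found in 10 of 86 ZNF genes with a region in both UV lists.

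Groups of the damage response were small, with 8 to 18 genes each, so 1 gene moves their shares by several percentage points. Nucleotide excision repair had 2 of 15 genes, ERCC4, the structure-specific nuclease subunit XPF, and ERCC8, the transcription-coupled repair factor CSA. ERCC4 carried 0, 0, 1 and 2 peaks with a region at bases 2280 to 2694, and ERCC8 0, 0, 1 and 1 with a region at bases 1 to 130. The list gave 0 genes with the opposite pattern, of 14 with a region in both UV lists. Checkpoint and double-strand break repair had 4 of 18 (22.2%): SHLD2, of the shieldin complex, with 0, 2, 3 and 3 peaks, BARD1, the partner of BRCA1, with 0, 2, 4 and 3, the kinase PRKDC with 4, 5, 5 and 5 and FANCI with 3, 2, 3 and 3. Translesion synthesis had 1 of 8, POLQ, polymerase theta, with 1, 2, 1 and 3 peaks. Targets of p53 had 2 of 15, the metabolic regulator TIGAR with 0, 0, 2 and 1 peaks and the mitochondrial reductase FDXR with 0, 0, 1 and 1. Of the m6A machinery 2 of 16 had such a region. METTL14, the partner of METTL3 in the methyltransferase (chromosome 4, 118685392 to 118715430), carried 0, 0, 1 and 1 peaks with a region at bases 1247 to 1462, where the KO minus UV peak covered 206 bases and the WT minus UV peak 132. YTHDC2, a helicase and m6A reader, carried 0, 1, 3 and 3 peaks.

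Immediate early genes, which are short and quickly induced, had 0 of 21 genes with such a region, and heat shock and unfolded protein response genes 0 of 17. The median gene length of these groups was 4.20 kb and 13.7 kb. With the KO plus UV list left out the counts were 2 of 21 (9.52%, 2.65 to 28.9) and 0 of 17 (0 to 18.4). Over all genes the share at this setting was 15.8%, which both intervals hold. The opposite pattern was also found in 0 of 21 and 0 of 18 genes of these groups with a region in both UV lists. Over all genes the shares were 11.5% for the pattern and 8.02% for the opposite one. The MAP kinase cascade and DUSP phosphatases had 1 of 33, the stress kinase MAP3K20. Ribosomal proteins had 3 of 37, all of the mitochondrial ribosome (MRPS25, MRPS18B and MRPL20), and splicing factors and RNA helicases 7 of 87, among them LUC7L3 with 0, 0, 3 and 3 peaks.

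The other groups lay between. TGF-beta, BMP, WNT and NOTCH signalling had 7 of 37 genes, among them SMAD4, the shared signal transducer of TGF-beta and BMP, with 0, 1, 3 and 2 peaks, the activin receptor ACVR2B with 0, 1, 3 and 3 and APC, the scaffold for beta-catenin breakdown, with 0, 2, 4 and 4. ZBTB and other BTB families had 7 of 44, deubiquitinases 5 of 32, ubiquitin ligases 11 of 75, kinesins and centrosome proteins 6 of 42, and chromatin regulators 7 of 51, among them EZH2, the H3 lysine 27 methyltransferase, with 0, 0, 2 and 1 peaks. F-box proteins and cullins had 6 of 44, collagens, integrins and matrix 6 of 45, RAB GTPases and trafficking 13 of 98, cell cycle and replication 4 of 32, with CDK6 at 0, 2, 6 and 4 peaks and CENPF at 1, 3, 4 and 3, and solute carriers 12 of 105. A gene with more regions has more chances to be counted, so these shares are not comparable between groups with few and with many regions per gene.

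**Figure D5:**
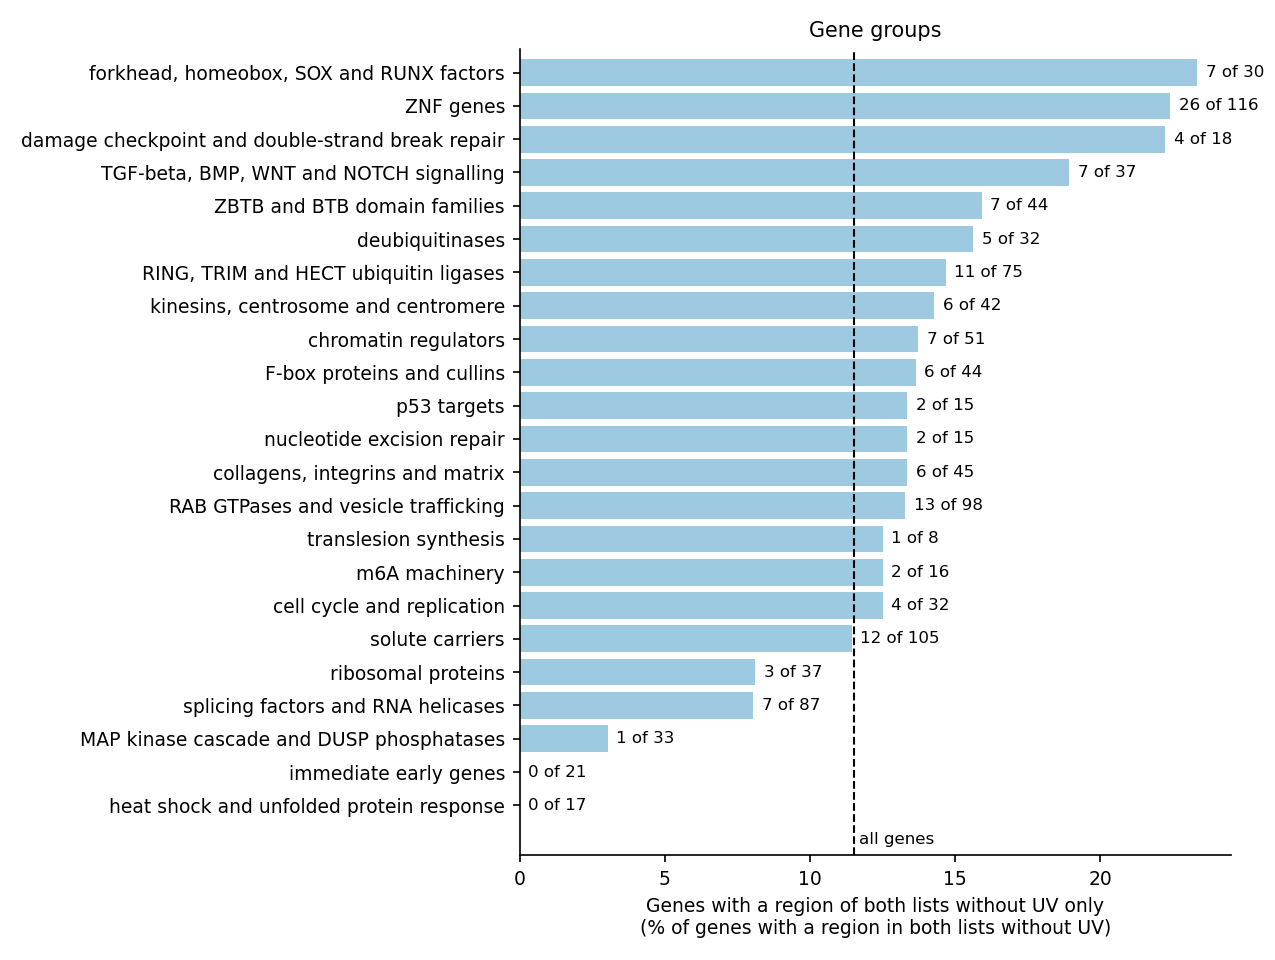
Share of genes in percent (horizontal axis, from 0) with at least 1 region of both lists without UV only, of the genes with a region in both lists without UV, for 23 gene groups, with the counts beside the bars. The dashed line marks all genes, at 11.5%, and the ends of the range are forkhead, homeobox, SOX and RUNX factors at 7 of 30 and the immediate early and heat shock groups at 0.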

How the data were processed

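Per the labels' protocols, RNA was selected for poly(A) in U2OS cells and sequenced as 50-base single-end reads. TopHat2 2.0.14 and build hg38 are named in the submitters' processing notes. Which peak caller and threshold were used, and how replicates were combined, is not stated there or in the labels. The deposited lists hold no unit of signal (other): each entry names a RefSeq transcript and the first and last base of 1 peak, which the values show to be counted from 1 with both ends included, since the narrowest then spans 100 bases. The name and score fields are empty.

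Peaks sharing at least 1 base on a transcript were merged with Python 3.11.15, and intervals were computed with statsmodels 0.14.6. The merging was tested on simulated data with known patterns. Of 9674 transcripts, 98.9% were matched to a gene through a RefSeq table (GRCh38.p14), after a copy number behind the accession was removed. Gene length is genomic. No annotated transcript length or transcript sequence was used here, so regions are placed in bases from the transcript start and not in untranslated or coding parts. Start windows come from a RefSeq table of 250 bases before and 50 after each gene's start.

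With 1 list per condition there was no test between conditions. The members and the 27 gene lists (23 groups and 4 marker lists) were chosen with earlier results of these data known. Named genes were those of the 15 greatest summed lengths, those with at least 3 regions, the 10 longest without a UV peak on the transcript, the 5 with most UV peaks elsewhere, up to 4 per group, and the 5 regions nearest either side of the rule, with uncharacterised genes skipped. Antisense and readthrough transcripts share sequence with other genes, and reads cannot be assigned between them here. Other settings of the overlap, of peak width and of the lists used are given below.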

Additional observations from a re-analysis of the deposited data

How the results depend on the processing

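Over 7 settings beside the one reported, 43 of 55 values lay within the 95% interval of the reported value, or within 1.5 times for a count. Direction does not apply to them, since none is a difference. Merging peaks within 100 bases moved the share of regions without a UV peak to 7.78% and the share on transcripts with no UV peak to 40.7%. Peaks of at least 120 bases alone gave median widths of 180 bases in KO minus UV and 179 in WT minus UV, and peaks of at least 150 bases alone gave 190 and 189, since narrow peaks were removed, with 13.5 bases between centres and 41.5% on transcripts with no UV peak. Leaving out the KO plus UV list, an alternative chosen after seeing the data, as were all those for position, gene length and ZNF genes, gave 11.8% of regions without a UV peak, 13.3% in the first 200 bases and a median gene length of 61.0 kb, and the cause was not tested. Counted as transcripts with a peak in both lists without UV and no UV peak, the pattern was found 221 times. The number of regions ran from 581 with peaks of at least 150 bases to 1058 without the KO plus UV list. Annotated transcript lengths were not used here, so that planned comparison was not run. No paired analysis was possible because there is 1 list for each condition and none for a replicate, which also kept any replicate from being left out.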

Other observations

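Noncoding transcripts held 22 of the 769 regions, or 2.86%, against 2.84% over all regions. The difference was 1.23 percentage points (0.197 to 2.70) from regions in every list, 0.722 points (-0.432 to 2.24) from regions missing from KO plus UV alone and 0.682 points (-1.46 to 2.45) from regions in both UV lists only. The 22 regions lay on 17 transcripts, of which 13 had no UV peak, against 202 of 626 (32.3%) for the transcripts of all 769 regions. SLC25A25-AS1, an antisense transcript, had 0 KO plus UV peaks, 0 WT plus UV peaks, 3 KO minus UV peaks and 3 WT minus UV peaks, the pseudogene PLEKHM1P1 0, 0, 2 and 2, and IPW, an imprinted transcript of the Prader-Willi locus, 0, 0, 1 and 1. LINC00674 held 4 regions and carried 1, 1, 6 and 5 peaks. FGD5-AS1 and NIPBL-DT each had UV peaks elsewhere. These transcripts were chosen after their values were seen.

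By chromosome, the share of regions of both lists without UV that had no UV peak ran from 5.19% (3.48 to 7.67) on chromosome 19 to 13.6% (8.52 to 20.9) on chromosome 13, against 8.57% over all. The median gene length of those regions was 24.5 kb on chromosome 19 and 76.0 kb on chromosome 13. The order of the chromosomes did not follow gene length throughout. Chromosome 4, with the longest median at 83.0 kb, had 9.86%, and chromosome 21, at 39.0 kb, had 12.4%. Of the 26 ZNF genes with such a region, 8 lay on chromosome 19. The number of ZNF genes there with a region in both lists without UV is not given here. The count of 8 therefore says nothing about their share.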
